A study of Macaca mulatta with 80 samples.

Results

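Between the age of 6 months and adulthood the entorhinal cortex of male rhesus monkeys was compared on 8 arrays, 4 from 6-month animals and 4 from adults, out of 80 arrays in the series. These 8 arrays were taken by their labels alone, and every difference below is adult minus 6 months on a log2 scale unless stated. The series read 5 areas of the hippocampal formation (entorhinal cortex, dentate gyrus, CA3, CA1 and subiculum) of 16 Macaca mulatta at 4 ages, 1 array for each area of each animal. The entorhinal samples held all cortical layers of the intermediate division at its mid-rostrocaudal level, microdissected from frozen slices kept in RNAlater, and total RNA was taken with Trizol. The labels name no treatment other than the terminal anaesthetic. The adults were 6 to 12 years old, and which adult had which age is not given in the labels. Newborns (1 day) and one-year animals, again 4 each, entered the same fit because the 4 ages of entorhinal cortex shared 1 estimate of the spread. The array was designed for human transcripts and read macaque RNA, so levels are compared between ages of 1 gene and never between genes.

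The entorhinal cortex is the gate through which the neocortex reaches the hippocampus: neurons of its superficial layers send the perforant path to the dentate gyrus and the hippocampal fields, and neurons of its deep layers carry hippocampal output back to the cortex. Postnatal life is the time in which its axons are myelinated, its synapses are refined and its interneurons gain their nets of matrix. Immediate early genes, transcription factors and synaptic proteins switched on within minutes of neuronal firing, serve there as markers of activity.

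The label was checked on marker genes, of which CUX2 alone set entorhinal cortex apart by a higher level. The means given for these markers are over the 6-month and adult arrays of each area. CUX2, a transcription factor of superficial cortical neurons, averaged 8.12 in entorhinal cortex against 5.90 to 6.26 in the other 4 areas. TTR, the chief secreted protein of choroid plexus, was lowest here (5.72 against 6.39 to 7.53). TBR1, another cortical marker, was close to the floor of the array in each area (5.30 in entorhinal cortex), and RELN (9.62) was as high in the subiculum. LMO4 was higher in CA1 (10.21 against 9.89 in entorhinal cortex), and LHX2 was higher in CA1 (10.05) and CA3 (10.22) than in entorhinal cortex (9.69). RNA integrity was read as the log2 ratio of the 3′ to the 5′ control probe set of GAPDH. It ran from 1.25 to 1.64 at 6 months and from 1.29 to 1.69 in adults, so the ages compared overlapped, and the same ratio for actin ran from 3.59 to 4.06 and from 3.93 to 4.10. A one-year entorhinal array, number 8, stood apart with a GAPDH ratio of 2.79 (the other 3 read 1.39 to 1.53), an actin ratio of 2.46 (3.84 to 4.06) and a mean correlation with its own group of 0.964 (0.982 for the others). It is no array of the comparison, but it widens the shared spread, and counts are therefore given with and without it.

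In entorhinal cortex 293 of 19,775 genes (1.48%) differed between adults and 6-month animals in the limma fit (Benjamini-Hochberg adjusted p below 0.05), 150 higher in adults (0.759%) and 143 lower (0.723%), and the median difference over all genes was -0.006. At an unadjusted p below 0.05 there were 2428. The rises were led by KCTD4, PLEKHA2 and MOXD1, and the falls by the nuclear receptor NR4A2, the relaxin receptor RXFP1 and the activity-induced factor EGR4. Of the 39 gene lists examined, those of immediate early genes (7) and of immature neurons (6) held the most falls, and single genes of myelin, of stress hormone signalling and of the chaperones rose. Without array number 8 the same fit called 763 genes, and with only the 8 arrays compared 980, and both sets held all 293. Without number 8, 2.03% of all genes were called higher and 1.83% lower, and the counts of list members without it below are to be read against these shares. The count fell by over 1.5 times without adult number 2 (92), 3 (184) or 4 (99), or without 6-month number 9 (163), 10 (87) or 12 (117). Every animal was sampled once, so the p-values measure the spread between animals of an age. Called genes were picked by their difference on these same arrays. Groups without overlap, given for single called genes below, therefore describe the values and add no support. In bulk tissue, fewer cells of a type and less RNA per cell cannot be told apart.

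KCTD4, of the family of potassium channel tetramerisation domain proteins, had the largest rise among well-expressed genes. It read 8.63, 7.91, 8.64 and 8.66 in 6-month animals (numbers 9 to 12) and 9.75, 10.43, 9.79 and 10.56 in adults (numbers 1 to 4). The groups were over 1 log2 unit apart, with 6-month number 10 below the rest of its group, and the difference was 1.68 (SE 0.216, 3.19-fold, adjusted p = 0.000913). PLEKHA2, a phosphoinositide-binding adaptor, read 8.23, 7.78, 8.32 and 8.01 at 6 months and 9.15, 9.78, 9.23 and 9.83 in adults. Adults numbers 2 and 4 were the highest for both genes, and PLEKHA2 rose by 1.41 (SE 0.175, adjusted p = 0.000913), and its other 2 probe sets were higher in adults too. MATN2 encodes matrilin 2, a protein of extracellular filaments. Its values were 6.39, 6.21, 6.38 and 6.49 at 6 months and 7.49, 7.60, 7.23 and 7.80 in adults. No value overlapped, and the rise was 1.16 (SE 0.158, adjusted p = 0.00113), although the gene's other probe set did not go the same way.

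Osteopontin, the secreted phosphoprotein of SPP1, read 7.0, 7.22, 7.22 and 7.48 at 6 months and 8.09, 8.23, 8.48 and 8.84 in adults. Each adult was above each 6-month animal, for a rise of 1.18 (SE 0.199, adjusted p = 0.00423). MOXD1, a copper monooxygenase related to dopamine beta-hydroxylase, was more variable at 6 months, with 7.09, 7.98, 7.75 and 7.21 against 8.41, 9.18, 8.44 and 9.04 in adults. The closest values were 6-month number 10 and adult number 1, and the rise was 1.26 (SE 0.197, adjusted p = 0.00272), with 1 of its other 2 probe sets in the same direction. TOX3, a chromatin protein with an HMG box, went from 6.84, 6.88, 7.11 and 6.76 to 7.81, 8.32, 7.83 and 8.16, a rise of 1.13 (SE 0.196, adjusted p = 0.00468). IGFBP5, which binds insulin-like growth factors, had been high at birth (8.78 ± 0.533, SD, n = 4), stood at 7.37 ± 0.231 at 6 months and returned to 8.61 ± 0.35 in adults, a rise of 1.24 (adjusted p = 0.0161). The other 8 genes of the 15 largest rises were GUCY1A1 (1.11), a subunit of the nitric oxide receptor guanylate cyclase, the phospholipid flippase ATP8A1 (1.09), the zinc finger factor GLIS3 (1.09), BBX (1.09), SPMIP2 (1.02), the cytoskeletal GTPase SEPTIN4 (0.99), the stress kinase MAP3K20 (0.99) and the vesicle protein VAMP1 (0.96). None of the 15 had overlapping groups, but they were chosen by their difference on these same arrays, so this adds no support. Of the 15, 10 stayed called when any 1 array of the 8 was left out. Of these 10, ATP8A1 (adjusted p = 0.0521), SEPTIN4 (0.0941) and VAMP1 (0.0575) lost the call with the mean of a gene's probe sets. IGFBP5, GUCY1A1, GLIS3, BBX and MAP3K20 lost the call without at least 1 array, with adjusted p from 0.0509 to 0.173 there. Each of numbers 1 to 4 and 9 to 12 ended at least 1 of these calls. IGFBP5, GLIS3 and MAP3K20 also lost the call with the mean of probe sets. GLIS3's other probe set was not higher. Higher were 3 of the other 5 for IGFBP5 and 1 of the other 2 for ATP8A1 and for SEPTIN4.

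NR4A2 (Nurr1), an orphan nuclear receptor that marks neurons of the deepest cortical layers and is also induced by activity, showed the largest fall. It read 10.46, 10.50, 10.31 and 10.06 at 6 months and 9.19, 8.36, 8.86 and 7.97 in adults. All adults were below all 6-month animals, but the adults spread over more than 1 log2 unit, and the fall was 1.74, a 3.34-fold lower signal (SE 0.298, adjusted p = 0.0045). Newborns had a mean of 9.70, so the 6-month level was the highest of the 4 ages, and one-year array number 8 read 10.9. RXFP1, the receptor for relaxin, read 7.33, 7.98, 8.20 and 8.0 at 6 months and 7.0, 5.87, 6.88 and 6.03 in adults. The adults fell into a higher pair, numbers 1 and 3, and a lower pair, numbers 2 and 4, and the difference was -1.43 (SE 0.228, adjusted p = 0.00284).

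NEUROD6, a basic helix-loop-helix factor of cortical pyramidal neurons, read 8.98, 8.87, 8.94 and 9.15 at 6 months and 8.37, 7.42, 8.07 and 7.61 in adults. Adults 2 and 4 were again the lowest, and the difference was -1.12 (SE 0.167, adjusted p = 0.00209). PRKCB, the beta form of protein kinase C, was tight at 6 months, with 10.09, 10.19, 9.97 and 10.08, and read 9.14, 8.84, 9.35 and 8.90 in adults. It differed by -1.02 (SE 0.133, adjusted p = 0.000913), and 4 of its other 5 probe sets went the same way. RAB26, a small GTPase of secretory and synaptic vesicles, went from 9.03, 8.87, 8.90 and 9.13 to 8.15, 7.64, 7.95 and 8.03, a difference of -1.04 (adjusted p = 0.00113). The other genes of the 15 largest falls were CRTAC1 (-1.15), a secreted matrix protein, SYNDIG1L (-1.15), BRINP1 (-1.14), a neural inhibitor of cell cycle progression, CACNA2D3 (-1.12), the Arf GTPase-activating protein ASAP2 (-0.99), the corepressor TLE4 (-0.99), the unconventional myosin MYO16 (-0.98), and EGR4, FOS and NR4A3, which are described with the immediate early genes. The groups did not overlap in any of the 15, which were chosen by their difference on these same arrays, so this adds no support. Without any 1 of the 8 arrays 11 stayed called. CRTAC1, BRINP1, CACNA2D3 and FOS lost the call without at least 1 of numbers 2, 3, 4, 9, 10 and 12. Adjusted p ran from 0.0517 to 0.137 there. With the mean of a gene's probe sets BRINP1, FOS and TLE4 lost the call, and BRINP1's other probe set did not fall. FOS has no other probe set, so its values stayed the same and only the refit of all genes ended its call.

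**Figure D1:**
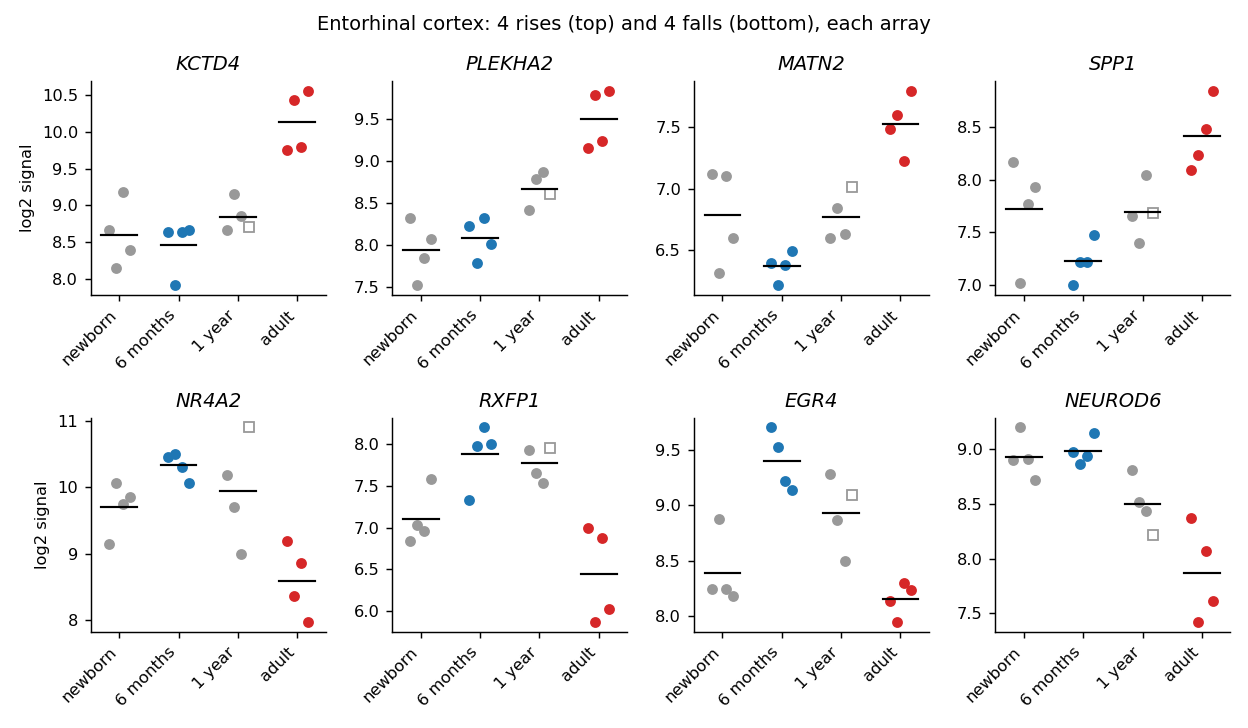
Log2 signal (vertical axes, 1 scale per gene) of 4 genes that rose and 4 that fell between 6 months (blue) and adulthood (red) in entorhinal cortex, with newborn and one-year arrays in grey. Each point is 1 animal's array, the bar is the mean of 4, and the open square is one-year array number 8; KCTD4 reads 7.91 to 8.66 at 6 months and 9.75 to 10.56 in adults, and NR4A2 reads 10.06 to 10.50 and 7.97 to 9.19.

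Immediate early genes were lower in adults for 7 of 17 measured (19 listed), higher for 1 and not called for the others, and 15 of the 17 differences were negative, with a median of -0.31 against -0.006 for all genes. The zinc finger factor EGR4 read 9.70, 9.52, 9.22 and 9.14 at 6 months and 8.14, 7.95, 8.30 and 8.24 in adults. The groups were clearly apart, for a difference of -1.24 (SE 0.169, adjusted p = 0.00113). FOS, a subunit of the AP-1 factor, read 7.71, 7.46, 7.36 and 7.71 and then 6.72, 6.39, 6.84 and 6.08, a difference of -1.05 (SE 0.243, adjusted p = 0.0312). The AP-1 partner JUNB went from 7.56 ± 0.0804 to 6.87 ± 0.157 (SD, n = 4 each), a difference of -0.69 (adjusted p = 0.00284). NR4A3, the close relative of NR4A2, differed by -1.01 (adjusted p = 0.00443), EGR1 by -0.84 (adjusted p = 0.0244) and ARC, a cytoskeletal protein of active synapses, by -0.65 (adjusted p = 0.029). JUN moved the other way. It read 8.22, 7.74, 7.59 and 7.62 at 6 months and 8.70, 8.76, 8.53 and 8.66 in adults, and all adults were higher (0.87, SE 0.133, adjusted p = 0.00233).

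The other 9 immediate early genes were not called. The phosphatase DUSP6 was at -0.81 (adjusted p = 0.0656) and was called without array number 8, while NPAS4, FOSB and HOMER1, which are also induced by activity, stood at -0.01, -0.01 and -0.02. At birth EGR4 averaged 8.39, NR4A3 8.59 and FOS 7.07, below their 6-month means of 9.40, 9.33 and 7.56. The count of falls was 7 on the values as deposited, 6 after centring of the arrays, and 4 without adult number 2 or 4 or 6-month number 9, 10 or 12. Without any 1 array of the 8, EGR4, JUNB, NR4A2, NR4A3 and JUN stayed called; ARC, EGR1 and FOS lost the call without at least 1 of them (adjusted p from 0.0506 to 0.137), and each of the 8 arrays ended at least 1 of these calls. The labels give no record of the animals' behaviour before death, and its part in these levels was not tested. In the subiculum the immediate early list had a median of -0.23. The 3 falls called there were EGR4 (-1.14), FOS (-0.99) and ARC (-1), with adjusted p from 0.00526 to 0.0277 (limma). In the dentate gyrus the median was -0.03, with 2 rises and no fall called. The difference between areas, tested below, was not called for EGR4, FOS, ARC, JUNB or EGR1 (adjusted p from 0.43 to 0.966, limma). It was called for NR4A2, NR4A3 and JUN.

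**Figure D2:**
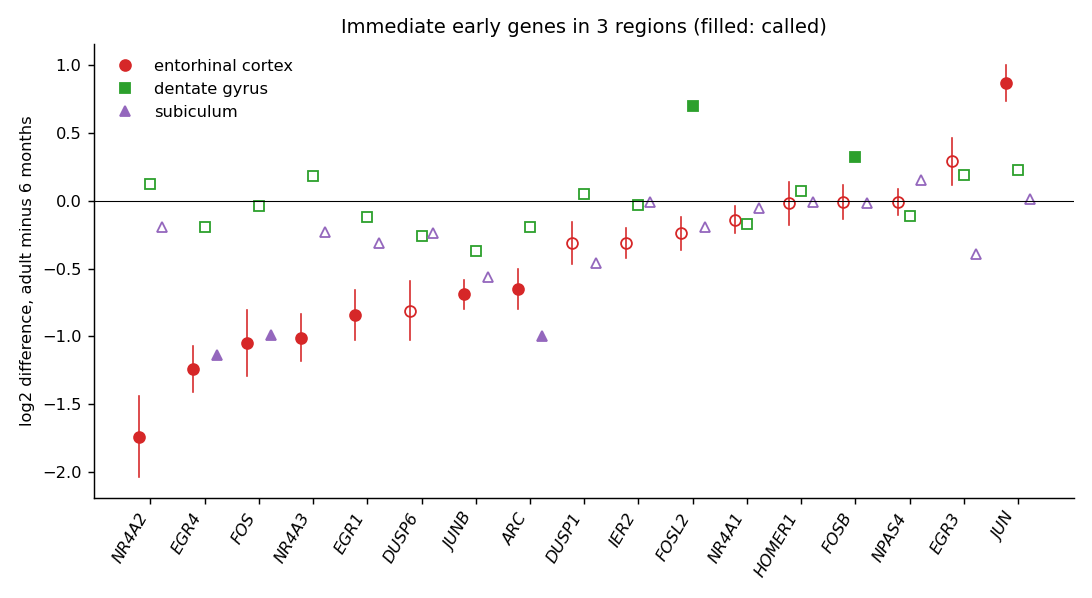
Log2 difference, adult minus 6 months (vertical axis), of the 17 measured immediate early genes in entorhinal cortex (circles, bars are the SE), dentate gyrus (squares) and subiculum (triangles), with filled symbols for called genes. In entorhinal cortex 7 genes are filled below 0, from NR4A2 at -1.74 to ARC at -0.65, and JUN is filled at 0.87.

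Of 25 measured genes of immature neurons and neurite outgrowth, 6 were called lower in adults and none higher, 23 of the 25 differences were negative, and the median was -0.31. TUBB3, the neuronal class of beta-tubulin, read 12.58, 13.15, 12.85 and 13.08 at 6 months and 12.20, 11.94, 12.20 and 11.88 in adults, a difference of -0.86 with no overlap (SE 0.129, adjusted p = 0.00209). ST8SIA2, the enzyme that adds polysialic acid to NCAM, read 6.44, 6.34, 6.34 and 6.02 and then 5.26, 5.24, 5.61 and 5.26. Its adult level lay below the median of gene means of 5.98, and the difference was -0.94 (SE 0.15, adjusted p = 0.00284). The other called members were the collapsin response mediator CRMP1 (-0.65), the surface glycoprotein CD24 (-0.55), the growth cone protein BASP1 (-0.47) and NREP (-0.45). The neuroblast marker DCX did not follow them, with a difference of 0.09 (adjusted p = 0.872); it had dropped from a mean of 8.75 at birth to 7.60 at 6 months. In the dentate gyrus the same list had a median of -0.50 with 13 falls, and in the subiculum -0.35 with 9. The entorhinal count was 9 without array number 8, 3 without adult number 2 or 6-month number 11, and 2 without adult number 4 or 6-month number 10 or 12.

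Markers of cortical excitatory layers were mostly lower in adults, with 12 of 15 measured differences negative and a median of -0.28, but only NR4A2 and TLE4 were called. TLE4, a corepressor of layer 6 neurons, read 9.87, 10.50, 9.95 and 10.01 at 6 months and 9.38, 8.89, 9.23 and 8.89 in adults, with no overlap (-0.99, SE 0.139, adjusted p = 0.00122). Without array number 8 the deep-layer factors FEZF2 and FOXP2 and the upper-layer factor CUX2 were called lower too; with it their differences were -0.73, -0.61 and -0.49 (adjusted p = 0.193, 0.293 and 0.346). In the dentate gyrus and subiculum the list's medians were -0.01 and 0.05. Of 14 general neuronal markers, TUBB3 and the surface glycoprotein THY1 (-0.71, adjusted p = 0.00233) were called lower and none higher, with a median of -0.19, while the synaptic vesicle sensor SYT1 stood at -0.08. With the mean of a gene's probe sets TLE4 (adjusted p = 0.13), CD24, BASP1 and CRMP1 lost the call, though CRMP1 has no other probe set. BASP1 and CRMP1 also lost theirs under both other scalings. TUBB3, THY1, ST8SIA2, NR4A2 and TLE4 stayed called without any 1 of the 8 arrays; NREP, CD24, BASP1 and CRMP1 did not, with adjusted p from 0.057 to 0.164, and each of the 8 arrays ended at least 1 of these calls.

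At the synapse the called genes went down in most cases, but few members of each list were called. Of 18 measured genes of the postsynaptic density, neurogranin (NRGN, -0.66), which buffers calmodulin, ARC and the scaffold HOMER2 (-0.46) were lower, and the median was -0.13. NRGN read 8.81, 9.37, 8.81 and 8.80 at 6 months and 8.46, 8.30, 8.35 and 8.05 in adults; number 10 was high for its group, and the groups did not overlap (SE 0.135, adjusted p = 0.0161). Of 21 genes of vesicle release, the vesicle GTPase RAB3A (-0.55, adjusted p = 0.0212) and complexin 1 (CPLX1, -0.77, adjusted p = 0.0281) were lower and VAMP1, a synaptobrevin of the fusion machinery, was higher. VAMP1 read 7.43, 7.62, 7.41 and 7.31 at 6 months and 8.13, 8.20, 8.39 and 8.91 in adults, and its other 2 probe sets were higher too (0.96, SE 0.18, adjusted p = 0.00912).

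Among receptors and channels, GRIN2A, the NMDA receptor subunit of maturing synapses, read 10.05, 10.18, 9.85 and 9.97 at 6 months and 9.51, 9.44, 9.40 and 8.79 in adults. It was the 1 called gene of 21 glutamate receptor genes (-0.73, SE 0.175, adjusted p = 0.0405), and the median of that list was -0.04. The call was lost on the values as deposited (adjusted p = 0.0697) and after centring of the arrays (0.0945). KCND3, a subunit of A-type potassium channels, was the 1 called of 17 potassium channel genes and was higher (0.78, adjusted p = 0.0279), although only 1 of its other 3 probe sets was higher. Of 18 calcium channel and calcium-binding genes, the channel subunit CACNA2D3 fell by 1.12 (adjusted p = 0.0237) and the calcium buffer calbindin (CALB1) rose by 0.83 (adjusted p = 0.0281). The adrenergic receptor ADRA2A (-0.68) was the only called gene of 26 monoamine and acetylcholine receptors, and the neurotensin receptor NTSR2 (0.69) that of 28 neuropeptide genes. No GABA receptor or transporter gene of 14 was called; the lowest p was that of GABRA4 (-0.65, adjusted p = 0.0681), and without array number 8 it, GABBR1 and GABBR2 were called lower and GABRA2 higher. In the synaptic, channel and receptor lists, VAMP1 alone of the 12 called genes given here stayed called without any 1 array, and it lost the call with the mean of its probe sets (adjusted p = 0.0575). The other 11 lost the call without at least 1 array, with adjusted p from 0.0509 to 0.164, and each of the 8 arrays ended at least 1 of these calls. Among these, HOMER2 and KCND3 also lost the call with the mean of a gene's probe sets.

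Of 23 measured genes of myelin and oligodendrocytes 2 were called, both higher in adults; 20 of the 23 differences were positive, and the median was 0.27. QDPR, an enzyme of tetrahydrobiopterin recycling that is rich in oligodendrocytes, read 8.35, 8.44, 8.45 and 8.66 at 6 months and 8.95, 9.61, 9.21 and 9.58 in adults. Its groups were apart (0.86, SE 0.138, adjusted p = 0.00288). ENPP2 (autotaxin), secreted by oligodendrocytes, rose by 0.75 (SE 0.165, adjusted p = 0.0244). The main myelin proteins were not called: MBP stood at 0.66 (SE 0.42, adjusted p = 0.589) and MOG at 0.57 (SE 0.182, adjusted p = 0.143). The mean level of the list ran from 6.61 to 6.77 at 6 months and from 6.77 to 7.12 in adults. How much white matter each dissection held was not tested. Without array number 8, CNDP1 and ERMN were called higher as well. In the subiculum the median of the list was -0.15, and in the dentate gyrus 0.23 with 4 rises.

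Of 18 astrocyte genes, ETNPPL, an enzyme that breaks down phosphoethanolamine, was called and was higher (0.95, SE 0.188, adjusted p = 0.0134); GFAP stood at 0.08 and the glutamate transporter SLC1A2 at -0.09. Of 15 genes of brain matrix and perineuronal nets, SPP1 was higher and neurocan (NCAN), a proteoglycan of young brain matrix, was lower. NCAN read 9.70, 9.69, 9.60 and 9.54 at 6 months and 9.16, 8.88, 9.16 and 9.0 in adults, with no overlap (-0.59, SE 0.125, adjusted p = 0.0212). Of these glial and matrix calls, QDPR and SPP1 held without any 1 array; ENPP2, ETNPPL and NCAN lost theirs without at least 1 of numbers 2, 3, 4, 9, 10, 11 and 12 (adjusted p from 0.0517 to 0.107).

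In the lists of glucocorticoid response and of growth factors few genes were called, each of them higher in adults. Of 13 glucocorticoid response genes, the mineralocorticoid receptor NR3C2 and the receptor co-chaperone FKBP5 were higher, and the median was 0.18. NR3C2 read 7.24, 7.47, 7.55 and 7.05 at 6 months and 7.98, 8.41, 8.13 and 8.32 in adults, with no overlap (0.88, SE 0.158, adjusted p = 0.00659). FKBP5 read 6.02, 6.29, 6.45 and 6.04 and then 6.93, 6.95, 6.48 and 7.07; adult number 3 was barely above 6-month number 11 (0.66, SE 0.134, adjusted p = 0.0161). Of 21 growth factor genes, IGFBP5 and the fibroblast growth factor FGF1 (0.69, adjusted p = 0.0299) were higher, while 12 of the 21 differences were positive and 9 negative, with a median of 0.04. FGF1 lost the call after centring of the arrays, and IGFBP5, FGF1 and FKBP5 lost it with the mean of a gene's probe sets. Without array number 8 the glucocorticoid genes called were 4, with SGK1 and DDIT4 added. NR3C2 stayed called without any 1 array; IGFBP5, FGF1 and FKBP5 did not (adjusted p from 0.0568 to 0.129), the call being lost without at least 1 of numbers 1, 2, 3, 4, 9, 10 and 12.

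Among genes of cell upkeep, ribosomal proteins had 18 of 19 measured differences above 0, with a median of 0.22, and RPL11 (0.61, SE 0.113, adjusted p = 0.00872) and RPL7 (0.42, adjusted p = 0.0266) were called. The small heat shock proteins CRYAB (0.85, SE 0.132, adjusted p = 0.00263) and HSPB8 (0.46, adjusted p = 0.021) were the 2 called of 13 chaperones, though HSPB8's other probe set was not higher. CRYAB read 7.83, 7.54, 7.83 and 7.90 at 6 months and 8.35, 8.83, 8.4 and 8.94 in adults, with numbers 2 and 4 the highest. Of 19 genes of oxidative stress and metals, the quinone reductase NQO1 rose by 0.87 (adjusted p = 0.0155) and the transferrin receptor TFRC, which brings iron into cells, fell by 0.94 (SE 0.152, adjusted p = 0.00291), although only 1 of TFRC's other 4 probe sets was lower. Of 22 genes of oxidative phosphorylation, CYC1 of complex III was lower (-0.56, adjusted p = 0.0108), of 13 of cholesterol synthesis MVD (-0.49, adjusted p = 0.0248), and of 27 of chromatin the deacetylase HDAC9 (-0.49, SE 0.0886, adjusted p = 0.00724). HDAC9 was the most even of the named genes, with 8.36, 8.28, 8.32 and 8.29 at 6 months and 7.83, 7.80, 7.82 and 7.84 in adults. Without array number 8, 4 ribosomal genes were called higher and 4 of oxidative phosphorylation lower. RPL11, CRYAB, TFRC and HDAC9 stayed called without any 1 array. RPL7, HSPB8, NQO1, CYC1 and MVD lost the call without at least 1 of numbers 2, 3, 4, 9, 10, 11 and 12 (adjusted p from 0.0519 to 0.117). With the mean of a gene's probe sets TFRC (adjusted p = 0.0892, limma), HSPB8 and NQO1 lost the call.

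Several lists held no called gene in this fit. For cells that could enter or leave a dissection these were oligodendrocyte precursors (13 measured, median 0.01), microglia (16, -0.03), endothelium and pericytes (15, 0), meninges and collagens (14, 0.07), choroid plexus (9, -0.04) and blood (8, -0.02). The mean level of the blood list ran from 5.69 to 5.72 at 6 months and from 5.57 to 5.73 in adults, and that of choroid plexus from 5.58 to 5.70 and from 5.53 to 5.62. The proteoglycan VCAN had the lowest p among precursor genes (0.84, adjusted p = 0.0988) and the proteoglycan OGN among meningeal genes (1.03, adjusted p = 0.145). CALB1 was the 1 called gene of 9 measured markers of dentate granule cells, the neighbouring tissue, and their mean level ran from 6.18 to 6.30 at 6 months and from 6.40 to 6.52 in adults; the part of neighbouring tissue was not tested.

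No gene was called among 25 of proliferation (median -0.02), 19 of interneurons (-0.18), 7 sodium channels (-0.08), 34 of axon guidance (-0.10), 17 of complement and MHC (0.14), 16 of the interferon response (0.04), 19 of glycolysis (-0.12), 28 of RNA splicing and binding (0.13) and 18 related to Alzheimer disease (-0.11). The nearest to the threshold were HLA-DRA, an antigen-presenting MHC class II chain (0.75, adjusted p = 0.0552), BACE1, the beta-secretase of amyloid precursor protein (-0.35, adjusted p = 0.0589), and the netrin relative NTNG1 (-0.86, adjusted p = 0.0617). Without array number 8, VCAN, HLA-DRA, HLA-DMA, IFIT1, MSI2, ADAM10 and CLU were called higher and BACE1, MAPT, NTNG1, NTN4, EPHA5, PGK1 and YBX1 lower, while the microglia, endothelium, meninges, choroid plexus, blood, proliferation, interneuron and sodium channel lists still held no call. The interneuron peptide SST stood at -0.28 (adjusted p = 0.339) and PVALB at -0.21 (adjusted p = 0.611). Over the 39 lists, medians lay between -0.31 and 0.27.

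**Figure D3:**
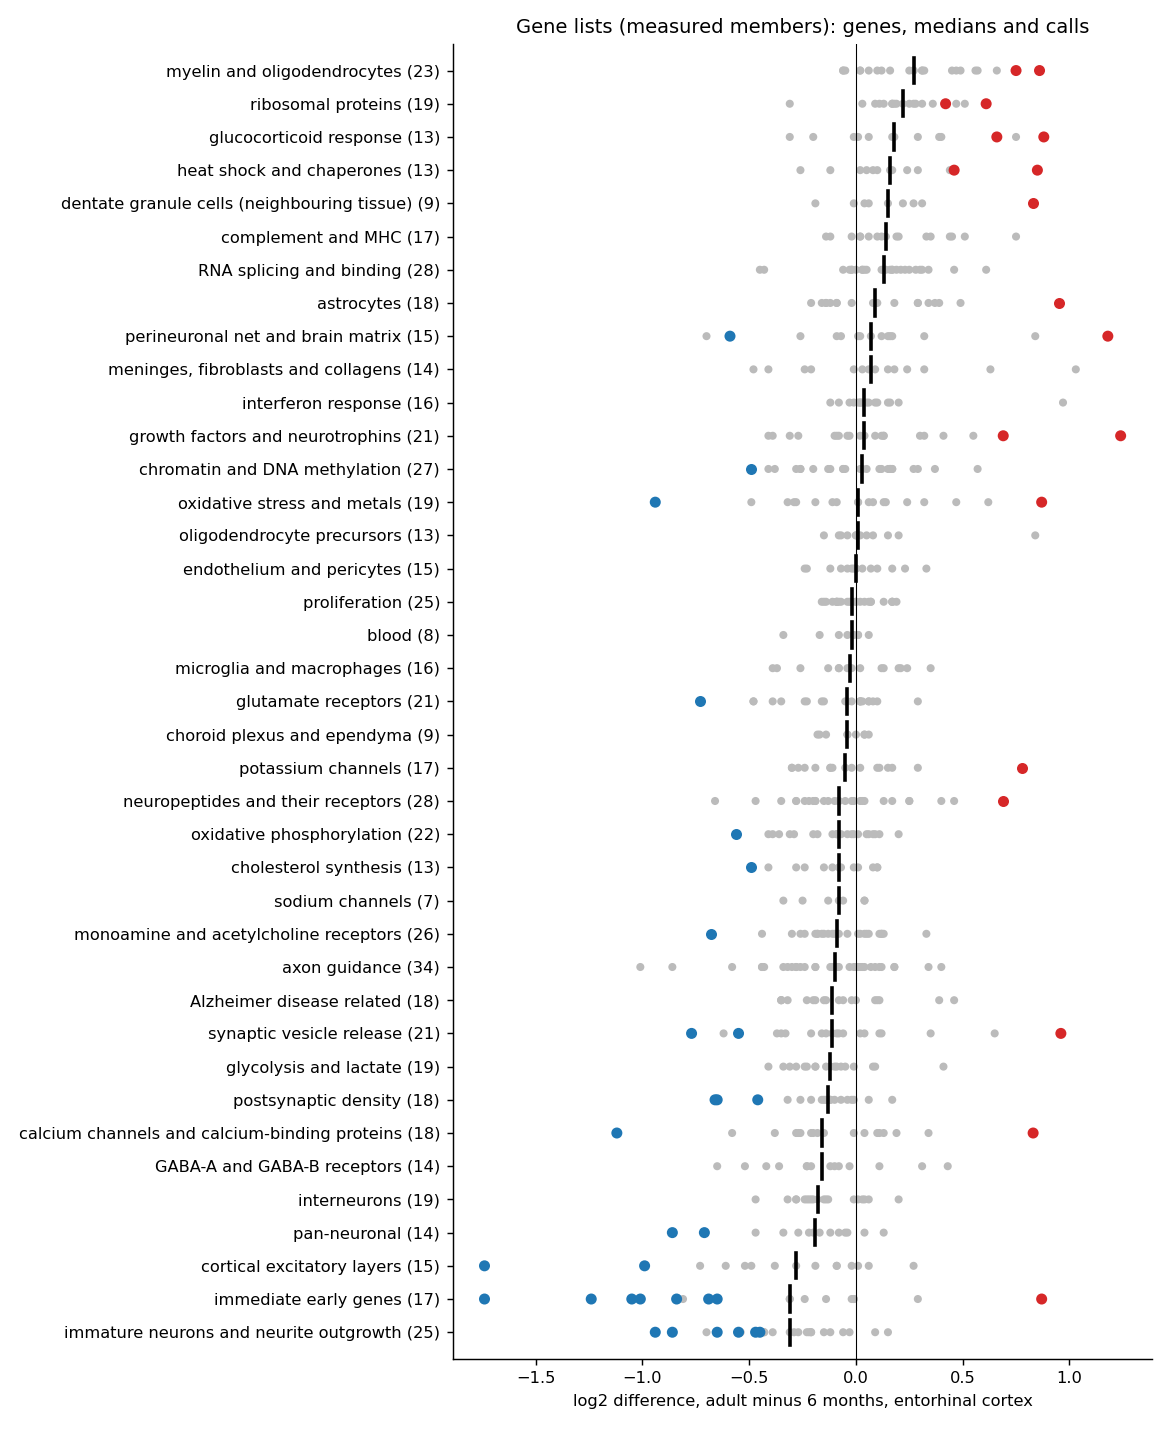
Log2 difference, adult minus 6 months, in entorhinal cortex (horizontal axis) for each measured member of the 39 gene lists (rows, with the number measured), ordered by the list's median (black bar). Grey points were not called, red points were called higher and blue points called lower in adults; myelin has the highest median (0.27) and immature neurons and immediate early genes the lowest (-0.31 both).

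One-year arrays split the interval. Between 6 months and one year no gene was called (0%; 1927 at an unadjusted p below 0.05, limma), with or without array number 8. Between one year and adulthood 60 genes were called (0.303%), 27 higher in adults and 33 lower. That count fell to 33 without adult number 1, 1 without number 2, 24 without number 3, 1 without number 4 and 4 without one-year number 5, and it was 54 without number 8. For the 150 rises, the one-year mean lay between those of 6 months and adults in 141 and had covered a median of 42.5% of the step; for the 143 falls it lay between them in 129, with a median of 41.8%. These positions share arrays with the calls and are given as a description.

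The one-year levels of 4 named genes are given as values, since no difference in timing between genes was tested. TOX3 had a one-year mean of 7.66 (7.50 without array number 8), between 6.90 and 8.03. SPMIP2 stood at 6.29 (6.42 without it), between 6.26 and 7.29. For RXFP1 it was 7.77 (7.71), between 7.88 and 6.45, and for TUBB3 12.29 (12.36), between 12.92 and 12.05.

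The same interval was read in the dentate gyrus and the subiculum, on separate dissections from the same animals, so the areas are not independent. Dentate RNA integrity did not overlap between the ages. The GAPDH ratio there ran from 1 to 1.07 at the younger age and from 1.28 to 1.43 in adults. The actin ratio ran from 3.03 to 3.36 and from 3.61 to 3.7. In the subiculum both ratios overlapped. The part of RNA integrity in the dentate calls, and in the genes shared with them, was not tested. In the dentate gyrus 304 genes were higher (1.54%) and 533 lower (2.70%) in adults, and in the subiculum 139 (0.703%) and 297 (1.5%). Of the 150 entorhinal rises, 27 were called higher in the dentate gyrus (18% of the entorhinal list, 8.88% of the dentate list) and 24 in the subiculum (16% and 17.3%). Of the 143 falls, 23 were called lower in the dentate gyrus (16.1% and 4.32%) and 38 in the subiculum (26.6% and 12.8%). Regardless of a call, the sign was shared by 122 rises and 112 falls in the dentate gyrus and by 126 and 128 in the subiculum. The share of shared signs over all genes was not computed, so these counts are given as a description. Of 19,775 genes, those called in all 3 areas were 9 rises, among them PLEKHA2, SPP1, VAMP1, NQO1 and FKBP5, and 7 falls, among them ST8SIA2 and NREP. Of these, VAMP1, NQO1 and FKBP5 lost the entorhinal call with the mean of a gene's probe sets. PLEKHA2 rose by 1.03 in the dentate gyrus and 0.99 in the subiculum, and SPP1 by 1.05 and 1.60.

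The difference between areas was tested itself, as the entorhinal change minus the mean of the changes in the dentate gyrus and the subiculum. It was called for 45 genes (0.228%), 23 with a higher and 22 with a lower value in entorhinal cortex (51.1% higher, but 61% of 41 on the values as deposited and 66.7% of 39 after centring of the arrays on their medians). The count was 0 without number 2 in the 3 areas (1729 at an unadjusted p below 0.05, against 1790 with it), 26 without number 3, 9 without 4, 16 without 9, 11 without 10, 9 without 11 and 6 without 12. The dentate changes entering this difference are those whose RNA ratios did not overlap between the ages. With the GAPDH ratio as covariate the count was 52, and these held all 45. Because the dentate ratios did not overlap, this fit cannot separate age from RNA integrity in that area. Adult subiculum array number 4 had a GAPDH ratio of 2.98, and leaving out numbers 4 and 8, an alternative chosen after seeing the data, gave 31. Of the 16 named genes below, 8 lost the call there: KCTD4 (adjusted p = 0.112), MOXD1 (0.124), TOX3 (0.0542), NR4A3 (0.0542), TLE4 (0.105), MYO16 (0.169), JUN (0.0592) and CYP26B1 (0.0853). Each animal gave 1 array per area, and the numbers 1 to 16 recur in each area, but the labels do not state that a number is an animal. The main fit has no block and takes the arrays of 1 animal as separate. With the number as a replicate block 31 genes were called, and 26 of the 45 lost the call. Of the 16 named genes 11 stayed called under the block; SYNDIG1L (adjusted p = 0.14), MYO16 (0.127), NTNG1 (0.0889), CYP26B1 (0.0872) and HHATL (0.0573) did not.

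NR4A2 was among the genes whose fall differed between areas. It changed by 0.12 in the dentate gyrus (adjusted p = 0.754) and -0.19 in the subiculum (adjusted p = 0.603), and the difference between the entorhinal change and theirs was -1.70 (SE 0.304, adjusted p = 0.00803). For RXFP1 the changes were 0.22 and -0.21, with a difference of -1.44 (SE 0.266, adjusted p = 0.0106). NR4A3 (difference -0.99), TLE4 (-0.86), SYNDIG1L (-0.86) and MYO16 (-0.68) were also called with a lower change in entorhinal cortex. In the dentate gyrus and subiculum NR4A3 changed by 0.18 and -0.23, TLE4 by -0.05 and -0.21, and SYNDIG1L by -0.16 and -0.42, none called. MYO16 was called lower in the dentate gyrus too (-0.53) and stood at -0.06 in the subiculum. NTNG1, which was not called within entorhinal cortex, had changes of 0.34 and 0.10 elsewhere and a difference of -1.08 (adjusted p = 0.0283).

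Among rises, KCTD4 changed by 0.35 in the dentate gyrus and 0.37 in the subiculum, against 1.68 in entorhinal cortex (difference 1.31, SE 0.264, adjusted p = 0.0188). TOX3 stood at -0.37 and -0.27 there (difference 1.45, SE 0.288, adjusted p = 0.0188), MOXD1 at 0.19 in both (difference 1.08, adjusted p = 0.0203) and JUN at 0.23 and 0.01 (difference 0.75, adjusted p = 0.0203). For the other 5 named genes the entorhinal change was not called. SOX4, a transcription factor of newly formed neurons, had changes of -1.98 in the dentate gyrus and -1.53 in the subiculum, both called, against -0.54 in entorhinal cortex (difference 1.22, adjusted p = 0.00803). Within entorhinal cortex SOX4 was called lower once array number 8 was left out (-0.54, adjusted p = 0.00628). Its relative SOX11 had -2.18 and -0.70, both called, against -0.21 (difference 1.23, adjusted p = 0.00803). CYP26B1, which degrades retinoic acid, had changes of -0.80 and -0.98 there, both called, and stood at 0.37 in entorhinal cortex (difference 1.26, adjusted p = 0.0283). The serotonin receptor HTR2C rose by 2.41 in the subiculum. It stood at 0.05 in the dentate gyrus and -0.18 in entorhinal cortex, neither called (difference -1.41, adjusted p = 0.021). HHATL rose by 1.58 in the dentate gyrus. It stood at 0.34 in the subiculum and -0.30 in entorhinal cortex, neither called (difference -1.26, adjusted p = 0.0203). Each of these 16 differences missed the threshold without number 2, with adjusted p from 0.0634 for NR4A2, KCTD4, SOX4 and SOX11 to 0.224 for NTNG1. SOX4 and SOX11 kept it when any other single number was left out, NR4A2 missed it without number 4 too (adjusted p = 0.0585), and the other 13 missed it without at least 1 of numbers 1, 3, 4, 9, 10, 11 and 12 (adjusted p from 0.0537 to 0.222).

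**Figure D4:**
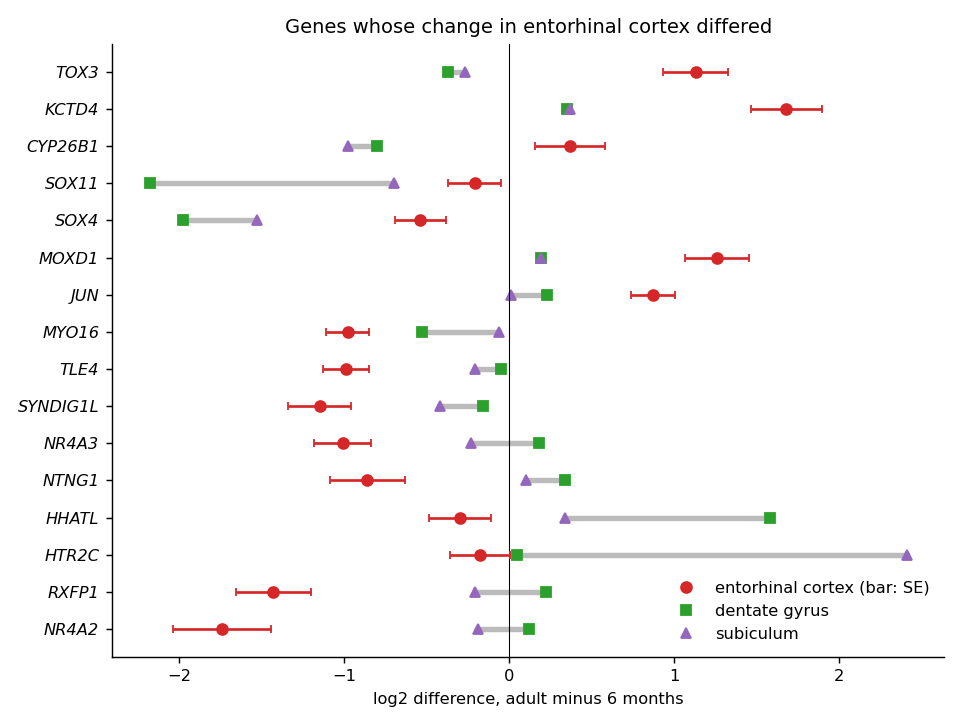
Log2 difference, adult minus 6 months (horizontal axis), of the 16 named genes whose entorhinal change was called different from the mean change of the dentate gyrus and subiculum. Circles are entorhinal cortex with the SE, squares the dentate gyrus and triangles the subiculum; NR4A2 lies at -1.74 in entorhinal cortex and at 0.12 and -0.19 in the other areas.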

How the data were processed

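The log2 values deposited by the authors were used, 1 per probe set and array (54,675 probe sets, 80 arrays, 3.42 to 14.51); the summarisation algorithm is not given in the sources used here. RNA was labelled with biotin in a two-cycle protocol, per the labels. Array quartiles spread by up to 0.12, above the limit of 0.05, so the 80 arrays were quantile normalized. Of the probe sets 41,091 had 1 gene symbol, 1,801 several and 11,721 none, with 62 controls. The probe set with the highest mean over 80 arrays stood for its gene, with no filter on low signal (19,775 genes, median of gene means 5.98). The number of arrays, 4 per group, limits the precision.

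Group means of the 16 entorhinal arrays were fitted in limma 3.58.1 (R 4.3.3, lmFit and eBayes), unpaired, and of 48 arrays for the difference between areas. Adjustment was by Benjamini-Hochberg across the genes tested, with calls below 0.05, and SEs come from the moderated contrasts. The tests were tried on simulated data. Genes and lists were chosen with earlier results of these data known. Named are, of the called genes whose higher mean was above the median, the 15 with the greatest rise and the 15 with the greatest fall, up to 3 called members of each of 39 lists with the smallest p or, where none was called, the member with the smallest p, and the 5 largest of each sign for the difference between areas; uncharacterised loci were passed over. Other called members of the immediate early and immature neuron lists, and uncalled members or genes called in all areas given beside them, were named after their values were seen. Alternatives were 2 other scalings, a low-signal filter, the mean of probe sets, the eBayes trend, the GAPDH ratio as covariate, other sets of arrays, each array left out, and the replicate block. Figures were drawn with matplotlib 3.10.9 (Python 3.11.15).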

Additional observations from a re-analysis of the deposited data

Results flagged for a closer look

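In 8 groups of 4 a single array lay far from the other 3 for a named gene. At 6 months number 10 was low for KCTD4 (7.91 against 8.63 to 8.66) and high for NRGN (9.37 against 8.80 to 8.81). Among adults, number 1 was low for SEPTIN4 (7.53 against 8.01 to 8.11), number 2 low for CPLX1 (8.0 against 8.42 to 8.44) and number 3 high for ST8SIA2 (5.61 against 5.24 to 5.26). Adult number 4 was low for GRIN2A (8.79 against 9.40 to 9.51) and RPL11 (8.46 against 8.62 to 8.65) and high for HSPB8 (6.95 against 6.64 to 6.67). One-year number 8 stood apart in its GAPDH ratio (2.79) and its actin ratio (2.46). In all, 180 groups were examined and 10 gave such an array, and chance alone gives about 1 in 20.

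In the main fit the entorhinal change was called different from the mean change of the dentate gyrus and subiculum for 16 named genes. With the replicate block 5 of these lost the call, and none kept it without number 2. The differences were positive for TOX3 (1.45), KCTD4 (1.31), CYP26B1 (1.26), SOX11 (1.23), SOX4 (1.22), MOXD1 (1.08) and JUN (0.75). They were negative for NR4A2 (-1.70), RXFP1 (-1.44), HTR2C (-1.41), HHATL (-1.26), NTNG1 (-1.08), NR4A3 (-0.99), SYNDIG1L (-0.86), TLE4 (-0.86) and MYO16 (-0.68).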

How the results depend on the processing

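The 293 genes called between 6 months and adulthood became 980 with only the 8 arrays compared, 712 with the GAPDH ratio as covariate, 190 with the mean of a gene's probe sets (42.6% higher), and 87 to 763 with 1 array left out. Between 6 months and one year 1 gene was called with the mean of probe sets and 0 otherwise. The 60 genes called between one year and adulthood became 37 on deposited values, 34 centred, 1 with only the arrays compared, 29 with the mean of probe sets, 17 with the eBayes trend, and 1 to 63 with 1 array left out. The 45 genes whose entorhinal change differed became 124 against all 4 other areas and 0 to 47 with 1 number left out. Where an alternative moved a count, the cause was not tested. Of 66 called named genes 32 stayed called without any 1 array, and none changed direction under any alternative. With the mean of probe sets 19 lost the call, and of these FOS and CRMP1 have no other probe set. GRIN2A, RPL7, BASP1 and CRMP1 lost it under both other scalings, and FOS and FGF1 after centring.

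Whether equal numbers pair arrays across areas was checked by the correlation of their deviations from group means: 15 of 32 entorhinal pairs with the dentate gyrus or subiculum were over 0.1 (-0.065 to 0.462), and 10 of 16 entorhinal arrays matched their own number best in each. The best match was sought among the 4 arrays of the same age. Because the labels do not state that a number is an animal, no block was used in the main analysis. The areas still came from the same animals, so the main fit takes repeated measures as separate arrays. With the replicate block 31 genes were called, 19 of them among the 45.

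The precision is limited by 4 arrays per age, and the signal of a gene near the array's floor understates a change.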

Other observations

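Among the 4 adults, numbers 2 and 4 were the pair farthest from the 6-month mean in 146 of the 293 called genes (49.8%), against 3.41% for numbers 1 and 3. The median share of the mean step that an adult showed was 82.6%, 115.7%, 88.4% and 112.1% for numbers 1 to 4, and the GAPDH ratios of these arrays were 1.40, 1.55, 1.29 and 1.69. The labels do not give the age of each adult, and the part of age or RNA integrity in this order was not tested.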
